A study of Homo sapiens with 15 samples.

Results

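H1299, an established line of human non-small cell lung carcinoma cells, was kept for 12 h in RPMI 1640 without serum, to which 5 mM glucose but no glutamine had been added, or neither glucose nor glutamine. This contrast, glucose alone against neither nutrient, uses 6 of the 15 libraries of the series, chosen by the medium named in their labels, with 3 libraries in each group. All cells had first grown in full medium with serum, and both groups lacked glutamine and serum during the 12 h. The other media held 4 mM glutamine, both nutrients, or 5 mM glucose with 4 mM NH4Cl. Their libraries entered the same fit, and the pair of media with glutamine gave the glucose effect with glutamine present. The labels speak of triplicate cells and name no day or batch. The p-values therefore measure only how these samples differ among themselves, and that spread may be technical.

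Poly(A) RNA was counted per gene, with 15892933 to 16823178 counts per glucose library and 15997566 to 18816188 per library with neither nutrient. The 10 most counted genes held 5.54% to 5.62% of each glucose library and 12.3% to 12.4% of each library with neither nutrient. Glucose replicate 1 and neither replicate 2 stood apart in holding 5529 and 1906 genes counted in no other of the 6 libraries, against 556 to 818 in the remaining 4, although those genes made up 0.0468% and 0.0139% of their counts. Without both libraries 6367 genes were called higher and 6124 lower under the TMM scaling described next. Levels are in CPM, the counts of a gene scaled to a common library total, after TMM scaling, which sets a factor for each library from the bulk of its genes. These factors were 1.066 to 1.085 with glucose and 0.7928 to 0.7935 with neither nutrient, so list medians and the changes of the main genes are also given relative to the plain library totals, where log2 changes were higher by a median of 0.436. A gene was called where edgeR's quasi-likelihood test gave it a p under 0.05 after Benjamini-Hochberg adjustment over 16889 genes, and "rose" or "fell" below means called in that direction under both scalings unless a scaling is named. A change given alone after a gene is its log2 change with glucose over neither nutrient under TMM. In bulk RNA, fewer cells and less RNA per cell cannot be told apart, and neither scaling measures RNA per cell.

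Cells use glucose for glycolysis, the pentose phosphate pathway and sugar donors for glycosylation, and glutamine for nitrogen and for carbon in the TCA cycle. Shortage of amino acids activates the kinase GCN2, which phosphorylates eIF2 and raises translation of ATF4, a factor that induces amino acid transporters and synthesis enzymes. Unfolded cytosolic proteins free the factor HSF1, which binds heat shock elements and induces chaperone genes, whereas unfolded proteins in the endoplasmic reticulum (ER) activate the sensors PERK, IRE1 and ATF6 of the unfolded protein response (UPR).

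Under TMM 6735 genes (39.9% of those tested) were higher with glucose and 6401 (37.9%) lower. Under library totals 10145 (60.1%) were higher and 3533 (20.9%) lower, and the median log2 change of all genes was 0.05 under TMM and 0.49 under totals. Both scalings called the same direction for 6735 higher genes (39.9%) and 3533 lower genes (20.9%). Of these, 2969 higher genes (17.6%) and 610 lower genes (3.61%) had moved at least 2-fold under each scaling. All 3 glucose libraries lay above all 3 libraries with neither nutrient for 6825 genes (40.4%) and below them for 6444 (38.2%), so separated libraries were common in this contrast. The counts of each gene list below are read against these shares.

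Among called coding and long noncoding genes that averaged at least 10 CPM over the 6 libraries, the largest fall was that of HSPA6, a strictly inducible HSP70 gene (ENSG00000173110, chromosome 1, 161524540 to 161526910 on GRCh38), with 1.65, 1.47 and 1.83 CPM with glucose, against 2567, 2677 and 2657 CPM with neither nutrient. The falls next in size were those of HSPA1A and HSPA1B, the adjacent genes of inducible HSP70, of which HSPA1B had 61.9, 63.9 and 62.6 CPM with glucose, against 23417, 23924 and 23345 CPM with neither nutrient. No library of one group overlapped the other at any of these genes, as the rule that chose them required. Log2 changes were -10.64 ± 0.043 under TMM and -10.20 ± 0.042 under library totals for HSPA6 (adjusted p = 2.32e-200) and -8.55 ± 0.02 under TMM and -8.11 ± 0.018 under library totals for HSPA1B (adjusted p = 2.32e-273). Counts of the HSP70 copies are uncertain, since the sources used here do not say how multiply mapped reads were handled, and 36.5% of the exon bases of HSPA1B also lie in exons of another gene on its strand. HSPA7, an unprocessed pseudogene and so outside that limit, was at -10.72 under TMM. Exon overlap also makes the counts of some genes named below uncertain. The share of exon bases in another gene's exons was 31.4% for HSF4, 28.4% for NDUFV2 and 19.6% for NDUFS3 on the same strand, and on the opposite strand 44.2% for BAG2, 41.2% for DDIT4, 31.6% for DDIT3, 30.8% for IER2, 30.6% for SNHG16, 28.4% for UBB and 26.5% for IER3.

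The other 9 of the 12 largest falls within that limit were at FOSB, FOS, DNAJB1, BAG3, ID2, DUSP1, ZFAND2A, DUSP2 and DNAJA1. ID2, which encodes an inhibitor of basic helix-loop-helix factors (ENSG00000115738, chromosome 2, 8678845 to 8684453), had 1.26, 1.47 and 1.42 CPM with glucose, against 30.1, 31.3 and 32.5 CPM with neither nutrient. ZFAND2A, a zinc finger gene also called AIRAP that binds the proteasome, had 30.5, 27.2 and 30.6 CPM with glucose, against 619, 622 and 628 CPM with neither nutrient. Each of the 12 was called lower under both scalings and separated between groups in TMM-scaled CPM, as the rule that chose them required. Their log2 changes were -10.64 to -4.13 under TMM.

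Within the same limit of at least 10 CPM, the 12 largest rises were at SLC7A11, NEAT1, SLC9A3-AS1, LURAP1L, ADIRF-AS1, ALDH1L2, ADM2, SLC6A9, EPAS1, TP53INP1, GTPBP2 and TRIB3. ALDH1L2, the mitochondrial formyltetrahydrofolate dehydrogenase gene of one-carbon metabolism (ENSG00000136010, chromosome 12, 105019784 to 105084577), had 92.9, 84.3 and 83.3 CPM with glucose, against 5.904, 6.19 and 6.07 CPM with neither nutrient. EPAS1, which encodes the hypoxia factor HIF-2α (ENSG00000116016, chromosome 2, 46293667 to 46386703), had 17.96, 20.1 and 20.03 CPM with glucose, against 1.68, 1.96 and 1.34 CPM with neither nutrient. Both were separated between groups, as the rule that chose the 12 rises required. Log2 changes were 3.84 ± 0.068 under TMM and 4.28 ± 0.067 under library totals for ALDH1L2 (adjusted p = 1.87e-115) and 3.54 ± 0.13 under TMM and 3.97 ± 0.13 under library totals for EPAS1 (adjusted p = 5.82e-63). TP53INP1, an autophagy and stress gene, had 36.9 ± 0.791 CPM with glucose and 3.42 ± 0.577 CPM with neither nutrient, and GTPBP2, a ribosome rescue gene, had 240.5 ± 9.97 CPM with glucose and 25.1 ± 1.03 CPM with neither nutrient (SD, n = 3 each). LURAP1L had 27.7 CPM with glucose and 1.73 CPM with neither nutrient. Reads of SLC9A3-AS1 (19.7 CPM with glucose and 1.098 CPM with neither nutrient) and ADIRF-AS1 (31.3 CPM with glucose and 2.02 CPM with neither nutrient) are uncertain, since 19.3% and 16.0% of their exon bases lie opposite exons of another gene and the sources used here do not say whether strand was used in counting.

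**Figure D1:**
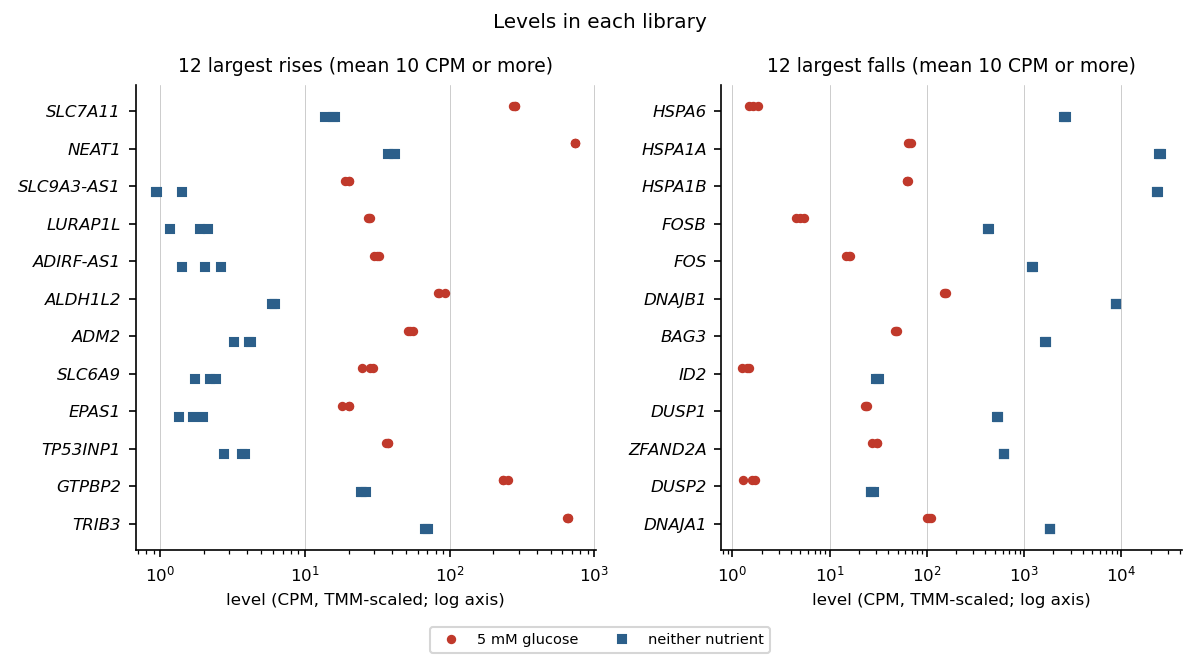
Level in each library (CPM after TMM scaling, log axis) of the 12 genes with the largest rises and the 12 with the largest falls among called coding and long noncoding genes averaging at least 10 CPM, with 3 glucose libraries as circles and 3 libraries with neither nutrient as squares. The groups do not overlap at any gene, as the rule that chose the genes required, and the libraries of a group lie close together. Among the falls, group means run from 1.65 against 2634 CPM at HSPA6 to 105 against 1848 CPM at DNAJA1.

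Of 37 measured cytosolic chaperone genes, 32 fell and 2 rose under both scalings (34 and 2 under TMM), where 20.9% of all tested genes fell and 39.9% rose. Their median log2 change was -2.01 under TMM and -1.58 under totals, against 0.05 and 0.49 for all genes. Together they held 0.987% to 0.994% of the counts of each glucose library and 9.42% to 9.52% of each library with neither nutrient. The other member of the list, HSPB8, a small heat shock protein gene, stayed below the low-count filter at 3 to 7 counts with glucose and 8 to 9 with neither nutrient.

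All 10 HSP70 and HSP110 genes fell, with a median of -3.15, and so did 10 of the 11 genes of HSP90 and its cochaperones. HSPH1, the HSP110 gene that acts as an exchange factor for HSP70, had 129, 132 and 137 CPM with glucose, against 1531, 1477 and 1529 CPM with neither nutrient. HSP90AA1, which encodes the inducible HSP90α (ENSG00000080824, chromosome 14, 102080738 to 102139699), had 2035, 2049 and 2069 CPM with glucose, against 24822, 24534 and 24691 CPM with neither nutrient. The groups lay far apart at both genes, with log2 changes of -3.51 ± 0.023 under TMM and -3.07 ± 0.022 under library totals for HSPH1 (adjusted p = 1.11e-190) and -3.59 ± 0.014 under TMM and -3.15 ± 0.012 under library totals for HSP90AA1 (adjusted p = 2.25e-234). The HSP90 cochaperone genes FKBP4 (-2.70), CHORDC1 (-2.42) and AHSA1 (-2.26), whose product stimulates the ATPase of HSP90, fell less far on the TMM scale. PPID, the cyclophilin 40 gene, was called lower under TMM alone, at -0.38 and under totals at 0.06.

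Of 9 HSP40 cochaperone genes, which stimulate the ATPase of HSP70, 6 fell and 1 rose. DNAJA1 had 99.96, 106 and 109.7 CPM with glucose, against 1850, 1846 and 1848 CPM with neither nutrient, and DNAJB4 had 25.5, 26.5 and 26.1 CPM with glucose, against 219.7, 204 and 215 CPM with neither nutrient. Both pairs of groups were separate. DNAJB2, a neuronally enriched HSP40 gene, had 95.3, 101 and 99.3 CPM with glucose, against 47.6, 48.5 and 45.9 CPM with neither nutrient, so here the glucose libraries were the higher ones (log2 1.06 ± 0.04 under TMM and 1.5 ± 0.039 under library totals, adjusted p = 8.35e-63). DNAJC7 (log2 -0.46 under TMM, -0.02 under totals) was called lower under TMM alone.

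Of 5 nucleotide exchange factors of HSP70, BAG3, BAG2, BAG1 and HSPBP1 fell and BAG5 rose by 0.11 under TMM. The call of BAG5 was lost without glucose replicate 2 (0.078, adjusted p = 0.0575) and with no low-count filter (0.077, adjusted p = 0.187). BAG3, which couples HSP70 to selective autophagy, had 46.7, 48.6 and 49.7 CPM with glucose, against 1673, 1655 and 1676 CPM with neither nutrient. Both measured small heat shock protein genes fell, HSPB1 (-3.87) with 84.4 against 1237 CPM. CRYAB, the αB-crystallin gene, had 0 counts in each glucose library and 10 to 13 counts in each library with neither nutrient, so it was near the limit of detection and no fold is given. The gene of the factor itself, HSF1, had 157, 154 and 161 CPM with glucose, against 269, 278 and 279.6 CPM with neither nutrient, a log2 change of -0.81 under TMM and -0.37 under totals. HSF2 fell (-0.77) and the HSF1 binding protein gene HSBP1 (-1.33), while HSF4, whose count is uncertain for its exon overlap, rose by 1.40 and HSF2BP (0.23 under TMM) was called higher under totals alone.

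The promoters of 5 of the chaperone genes that fell are printed because they hold the sequence that HSF1 is known to bind. They are those of HSPA6, HSPA1A, DNAJB1, HSP90AA1 and HSPA8, the gene of constitutive HSC70 (log2 -3.36 ± 0.015 under TMM and -2.92 ± 0.013 under library totals). Each is the 120 bases before a start site in RefSeq (GRCh38.p14), on the strand of the gene, and capitals mark heat shock elements, searched on both strands as GAANNTTC and TTCNNGAA, overlapping units included.
HSPA6 (chr1:161524420-161524539, plus strand): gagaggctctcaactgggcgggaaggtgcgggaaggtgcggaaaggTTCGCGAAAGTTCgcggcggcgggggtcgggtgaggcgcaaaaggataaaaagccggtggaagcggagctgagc
HSPA1A (chr6:31815423-31815542, plus strand): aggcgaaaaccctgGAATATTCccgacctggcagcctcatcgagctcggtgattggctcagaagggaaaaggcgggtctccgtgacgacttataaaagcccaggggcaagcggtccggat
DNAJB1 (chr19:14518398-14518517, minus strand): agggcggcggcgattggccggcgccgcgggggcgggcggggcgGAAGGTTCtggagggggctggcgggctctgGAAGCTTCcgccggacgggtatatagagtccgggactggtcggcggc
HSP90AA1 (chr14:102087045-102087164, minus strand): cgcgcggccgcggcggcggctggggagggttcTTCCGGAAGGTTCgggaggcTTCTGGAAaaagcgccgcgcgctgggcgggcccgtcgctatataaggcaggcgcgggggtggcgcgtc
HSPA8 (chr11:123062137-123062256, minus strand): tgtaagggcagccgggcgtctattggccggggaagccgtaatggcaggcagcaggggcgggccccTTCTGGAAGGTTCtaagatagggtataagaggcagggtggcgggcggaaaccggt
In the windows of 250 bases before to 50 after each listed start, such an element stood in 17 of 39 windows (43.6%) of the chaperone genes that fell, from 27 of 32 genes matched by symbol, and in 1678 of 15999 windows (10.5%) of all tested genes. A run of 3 alternating units stood in 7 of the 39 windows (17.9%) and in 56 of the 15999 (0.35%). The C/EBP-ATF response element, searched as TGATGNAAT, stood in 0 of 41 windows of the ATF4 target genes that rose and in 88 of all windows (0.55%). With so low a share in all windows, 41 windows are too few to tell whether these genes differ from the rest. These matches are descriptions of letters and show neither binding nor use of a site.

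The TRiC chaperonin folds actin and tubulin, and prefoldin hands these clients to it. All 14 of their genes fell, with a median of -1.04 under TMM and -0.61 under totals. CCT5, a TRiC subunit gene, had 331, 335 and 343 CPM with glucose, against 998, 1009 and 999 CPM with neither nutrient, and the prefoldin gene PFDN6 had 30.2, 33.3 and 32.4 CPM with glucose, against 99.03, 98.7 and 104 CPM with neither nutrient. No library overlapped at CCT5 (log2 -1.57 ± 0.02 under TMM and -1.14 ± 0.019 under library totals, adjusted p = 1.67e-139) or at PFDN6, although 30.1% and 32.2% of their exon bases lie opposite exons of other genes. Mitochondrial chaperone and protease genes were mixed, with 6 of 13 lower and 3 higher. HSPD1 (HSP60) fell (-1.20) and its partner HSPE1 (-2.77), the count of which is uncertain because it shares exons with a readthrough gene, while HSPA9 (mitochondrial HSP70) rose by 0.15 and the matrix protease gene LONP1 by 0.51.

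Genes of protein degradation by the proteasome were lower with glucose. All 31 proteasome subunit genes fell, with a median log2 change of -1.26 under TMM and -0.82 under totals, and they held 0.446% to 0.45% of each glucose library against 0.788% to 0.799% with neither nutrient. PSMB6, a gene of the catalytic 20S core, had 60.4, 65.2 and 66.4 CPM with glucose, against 282, 294 and 286 CPM with neither nutrient. PSMD13, a gene of the 19S regulator, had 55.1, 53.03 and 53.6 CPM with glucose, against 197, 210.4 and 200.1 CPM with neither nutrient. The log2 changes were -2.17 ± 0.032 under TMM and -1.73 ± 0.031 under library totals for PSMB6 (adjusted p = 2.04e-130) and -1.91 ± 0.033 under TMM and -1.47 ± 0.033 under library totals for PSMD13 (adjusted p = 1.24e-116). Of 10 ubiquitin and segregase genes 8 fell, among them UBB, a ubiquitin gene (-2.10), and VCP, the p97 segregase gene (-1.44). The count of UBB is uncertain, since it encodes repeated ubiquitin units and reads may map to more than one place. ZFAND5 (log2 -0.32 under TMM, 0.11 under totals) and UBE2D3 (-0.12 and 0.31) were called lower under TMM and higher under totals.

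**Figure D2:**
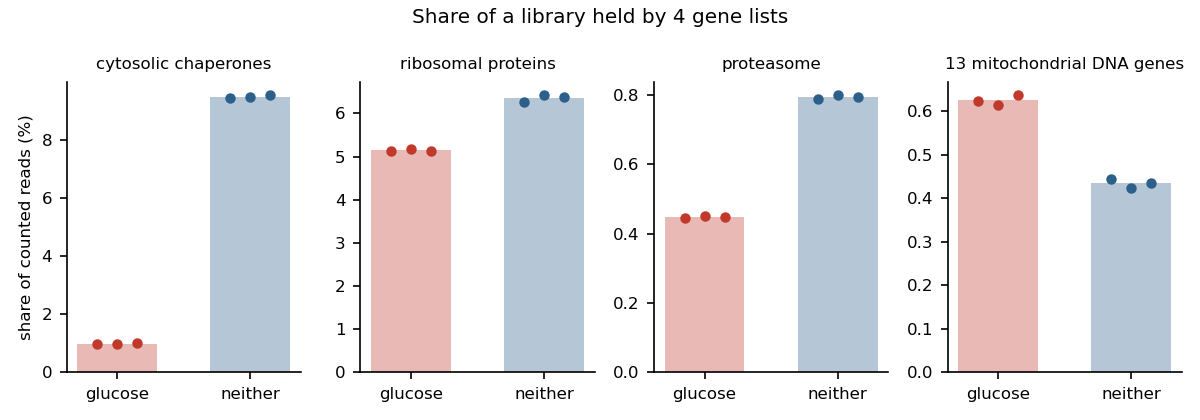
Share of the counted reads of each library (%, bars from 0) held by 4 gene lists, with points for the 3 libraries and bars for their mean, glucose left and neither nutrient right. Cytosolic chaperones held 0.987% to 0.994% with glucose and 9.42% to 9.52% with neither nutrient, whereas the 13 mitochondrial DNA genes held 0.615% to 0.637% and 0.425% to 0.444%.

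Immediate early genes answer growth factor and stress kinases within minutes, and several of their products end that signal. Of 40 measured genes 23 fell and 9 rose (28 and 9 under TMM), with a median of -0.71 under TMM and -0.27 under totals. FOSB, a partner of JUN in the AP-1 factor, had 4.504, 5.45 and 4.904 CPM with glucose, against 427, 426 and 437 CPM with neither nutrient. JUN had 110.5, 109.99 and 107 CPM with glucose, against 1763, 1782 and 1818 CPM with neither nutrient, and DUSP1, the gene of a nuclear phosphatase of p38 and JNK, had 23.3, 24.5 and 23.5 CPM with glucose, against 528, 541 and 537 CPM with neither nutrient. At each of the 3 genes the glucose libraries were far lower and did not overlap, with log2 changes of -6.44 ± 0.048 under TMM and -6.00 ± 0.049 under library totals for FOSB (adjusted p = 4.28e-181), -4.04 ± 0.025 under TMM and -3.60 ± 0.024 under library totals for JUN (adjusted p = 8.96e-198) and -4.49 ± 0.036 under TMM and -4.06 ± 0.035 under library totals for DUSP1 (adjusted p = 4.45e-177).

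Phosphatases and inhibitors of ERK and related kinases were divided, with 6 of 10 lower and 4 higher, the last being DUSP6, SPRY4, SPRED1 and SPRED2. DUSP6, an ERK phosphatase gene (ENSG00000139318, chromosome 12, 89347232 to 89353271), had 169, 174 and 172 CPM with glucose, against 46.6, 41.9 and 44.7 CPM with neither nutrient, and SPRY4, a Sprouty gene, had 313, 319.9 and 321 CPM with glucose, against 101, 95.2 and 96.1 CPM with neither nutrient. Both were separated upwards (log2 1.95 ± 0.036 under TMM and 2.38 ± 0.035 under library totals and 1.70 ± 0.029 under TMM and 2.14 ± 0.028 under library totals, adjusted p = 7.74e-112 and 6.08e-119), and 40.5% of DUSP6 exon bases lie opposite another gene's exons. The antiproliferative gene BTG1 rose by 2.13 with 409.8 against 93.6 CPM, IER3 by 1.19 and IER2 by 0.94. EGR1 fell (-1.60), whereas EGR2 (0.32) was not called under TMM and was higher under totals (0.76), and JUNB (-0.40) and FOSL2 (-0.46) were called lower under TMM alone.

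Among ATF4 target genes 36 of 43 measured rose and 4 fell, with a median log2 change of 1.07 under TMM and 1.5 under totals. Of 8 amino acid transporter genes 7 rose. SLC6A9, the glycine transporter gene GLYT1 (ENSG00000196517, chromosome 1, 43991500 to 44031467), had 24.6, 28.1 and 29.6 CPM with glucose, against 2.21, 2.43 and 1.73 CPM with neither nutrient. SLC7A5, the large neutral amino acid transporter gene LAT1, had 1544, 1579 and 1564 CPM with glucose, against 465, 475 and 456 CPM with neither nutrient. Its heavy chain partner SLC3A2 had 638, 653 and 642 CPM with glucose, against 694, 716 and 709 CPM with neither nutrient, a log2 change of -0.13 under TMM and 0.30 under totals, called lower under the first and higher under the second.

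Of 13 amino acid and one-carbon enzyme genes 12 rose. PCK2, the mitochondrial PEP carboxykinase gene (ENSG00000100889, chromosome 14, 24094053 to 24110598), had 166, 173 and 164 CPM with glucose, against 28.05, 27.5 and 26.5 CPM with neither nutrient, and PHGDH, the first enzyme of serine synthesis, had 339, 354 and 339 CPM with glucose, against 119.6, 121 and 118 CPM with neither nutrient. Both were higher in every glucose library (log2 2.62 ± 0.041 under TMM and 3.05 ± 0.039 under library totals and 1.53 ± 0.027 under TMM and 1.96 ± 0.026 under library totals, adjusted p = 9.63e-126 and 1.21e-115). ASNS, the asparagine synthetase gene, rose by 1.33 with 26.1 against 10.4 CPM, a count that is uncertain because 44.6% of its exon bases lie in another gene's exons. ALDH18A1, the gene of the first enzyme of proline synthesis, fell (-1.10).

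All 7 measured genes of secreted factors and others rose, among them ADM2, a calcitonin family peptide gene, with 51.7, 56.2 and 53.3 CPM with glucose, against 4.09, 4.23 and 3.23 CPM with neither nutrient, and GDF15, a stress cytokine gene, with 35.97, 38.6 and 38.6 CPM with glucose, against 4.23, 4.07 and 4.81 CPM with neither nutrient. The groups were well apart at both. STC2, a secreted glycoprotein gene, rose by 1.61 and VLDLR, a lipoprotein receptor gene, by 1.95. Regulators were divided, with 10 of 15 higher and 3 lower. Those that fell included PPP1R15A (-2.95 under TMM, -2.51 under totals) and ATF3 (-2.39 and -1.95). TRIB3, a pseudokinase gene, had 650.3, 660.5 and 656 CPM with glucose, against 68.98, 70.3 and 67.3 CPM with neither nutrient, and SESN2, which restrains mTORC1 under leucine shortage, had 448, 449 and 462 CPM with glucose, against 121, 121 and 121 CPM with neither nutrient. The transcript of ATF4 itself had 600.3, 611 and 623 CPM with glucose, against 529, 515 and 528 CPM with neither nutrient, a rise of 0.22 under TMM, and DDIT3 (CHOP) had 183, 183 and 187 CPM with glucose, against 166, 169.7 and 163 CPM with neither nutrient, a rise of 0.15. On the log2 scale these last changes were small beside that of TRIB3, and ATF4 and DDIT3 were not called in a test against a 1.2-fold change. DDIT4 (-0.34 under TMM, 0.09 under totals) and EIF4EBP1 (-0.36 and 0.07) were called lower under TMM and higher under totals.

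Aminoacyl-tRNA synthetases charge tRNAs with amino acids, and 12 of their 20 cytosolic genes rose while 6 fell. AARS (alanine) had 706, 727 and 710.3 CPM with glucose, against 300.1, 299 and 299 CPM with neither nutrient, and SARS (serine) had 499, 500.2 and 505 CPM with glucose, against 247, 245 and 231 CPM with neither nutrient. In the other direction KARS (lysine) had 234, 239 and 243 CPM with glucose, against 625, 629 and 627 CPM with neither nutrient. WARS (1.00) and CARS (1.02) were further rises and FARSA (-1.77) a further fall, each called under both scalings. The remaining 2 synthetase genes were not called in the same direction under both.

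ER chaperone and UPR genes showed no common direction, with 10 of 31 higher and 10 lower and a median of -0.10 under TMM and 0.33 under totals. HSPA5, which encodes the main ER HSP70 BiP (ENSG00000044574, chromosome 9, 125234853 to 125241330), had 2304, 2367 and 2341 CPM with glucose, against 1069, 1059 and 1062 CPM with neither nutrient. CALR, the calreticulin gene, had 219.5, 223 and 217 CPM with glucose, against 729, 740.02 and 740.2 CPM with neither nutrient. HSPA5 thus lay higher with glucose (log2 1.14 ± 0.016 under TMM and 1.57 ± 0.014 under library totals, adjusted p = 7.38e-135) and CALR lower (log2 -1.74 ± 0.02 under TMM and -1.31 ± 0.019 under library totals, adjusted p = 6.14e-147). HYOU1, an ER HSP110 gene, rose by 0.95, whereas the chaperone genes SDF2L1 (-1.88) and MANF (-1.31) and 4 of 6 disulfide isomerase genes, led by PDIA4 (-1.26), fell. All 4 genes of UPR sensors and factors rose, and ERN1, which encodes IRE1, had 71.5, 71.2 and 68.4 CPM with glucose, against 17.8, 16.8 and 19.2 CPM with neither nutrient. The call of XBP1, the gene of the factor that IRE1 activates by splicing (0.13), was lost with no low-count filter (0.096, adjusted p = 0.0973). ER-associated degradation genes rose in 4 of 10 cases and fell in 0, where 39.9% of all tested genes rose and 20.9% fell. SYVN1, the ubiquitin ligase gene HRD1, was at 1.64 and EDEM1 at 1.34, while HERPUD1 was called lower under TMM (-0.33) and higher under totals (0.10).

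**Figure D3:**
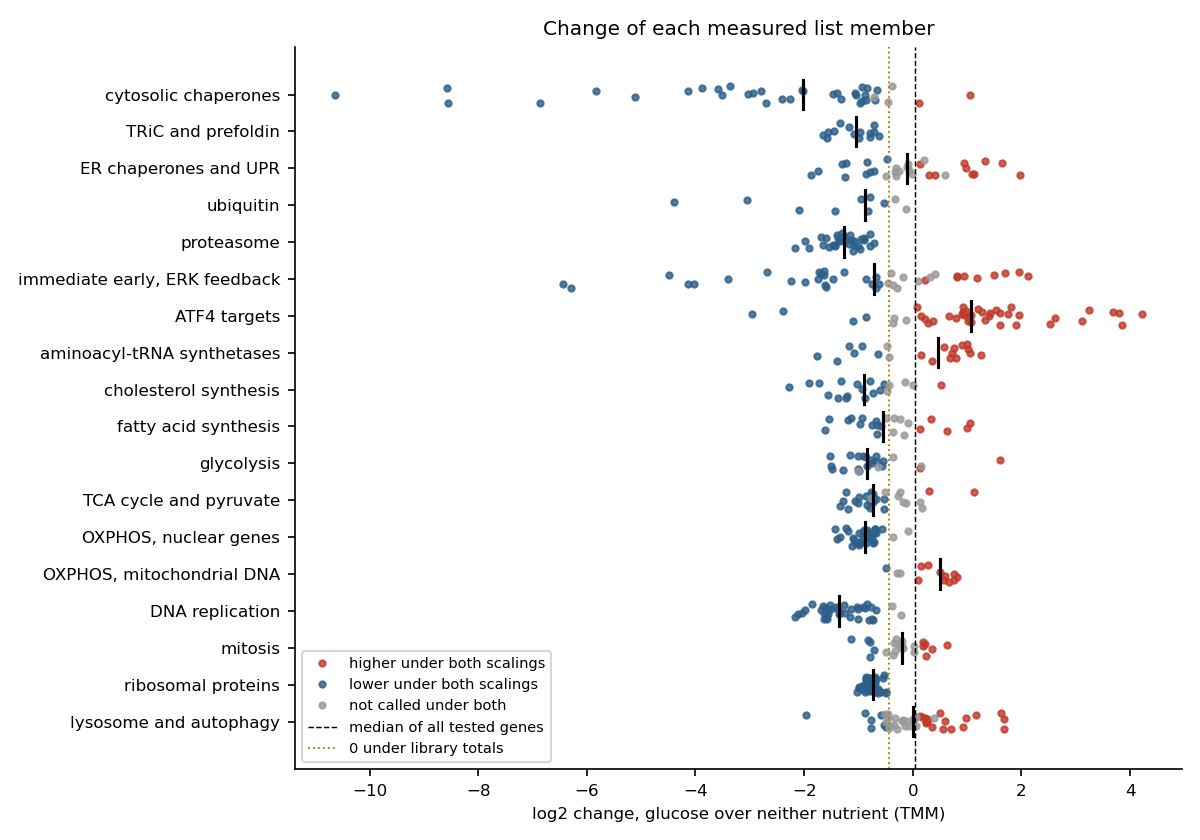
Log2 change (TMM) with glucose over neither nutrient of each measured member of 18 gene lists, coloured by the call under both scalings, with a bar at each list's median. The dashed line is the median of all tested genes (0.05) and the dotted line is where a change is 0 under library totals, and all 31 proteasome genes lie left of it while 36 of 43 ATF4 targets were called higher.

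The SREBP factors induce cholesterol and fatty acid synthesis genes. Most cholesterol synthesis genes were lower with glucose. Of 20 cholesterol synthesis genes 15 fell and 1 rose, with a median of -0.90 under TMM and -0.46 under totals. FDFT1, the squalene synthase gene, had 76.2, 80.7 and 79.1 CPM with glucose, against 228, 232 and 235 CPM with neither nutrient. The groups did not overlap there (log2 -1.56 ± 0.03 under TMM and -1.12 ± 0.029 under library totals, adjusted p = 1.82e-110). HMGCS1 fell (-0.79), SQLE was called lower under TMM (-0.14) and higher under totals (0.29), and TM7SF2, a sterol reductase gene, rose by 0.53.

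Fatty acid synthesis genes were divided, with 11 of 22 lower and 5 higher under both scalings. Under TMM 16 were lower and 5 higher (median -0.54), and under totals 11 were lower and 9 higher (median -0.10). FASN, the fatty acid synthase gene, had 175, 181 and 180.3 CPM with glucose, against 550.4, 556 and 547 CPM with neither nutrient, and SCD, the stearoyl-CoA desaturase gene, had 614, 615 and 624 CPM with glucose, against 1194, 1173 and 1187 CPM with neither nutrient. Both lay lower in each glucose library (log2 -1.62 ± 0.021 under TMM and -1.19 ± 0.02 under library totals and -0.94 ± 0.016 under TMM and -0.50 ± 0.014 under library totals, adjusted p = 1.24e-136 and 9.83e-119). ACLY, the ATP citrate lyase gene, fell (-1.14), while ACACB, the mitochondrial acetyl-CoA carboxylase gene, rose by 1.06 and MID1IP1 by 1.00. In sterol control INSIG1, which retains the SREBP and SCAP complex in the ER, had 30.4, 29.2 and 33.3 CPM with glucose, against 168, 164 and 167 CPM with neither nutrient, and fell (-2.42). ABCA1, a cholesterol exporter gene induced by LXR, had 38.1, 38.6 and 38.5 CPM with glucose, against 10.1, 10.5 and 10.9 CPM with neither nutrient and rose. SREBF1 (log2 -0.25 under TMM, 0.19 under totals) and SREBF2 (-0.32 and 0.11) were called lower under TMM and higher under totals.

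MondoA and ChREBP are factors that sense glucose phosphates, with TXNIP and ARRDC4 as their best known targets. ARRDC4 (ENSG00000140450, chromosome 15, 97960698 to 97973838) had 9.56, 8.67 and 8.51 CPM with glucose, against 0.4697, 0.705 and 1.18 CPM with neither nutrient, a log2 change of 3.52 ± 0.21 under TMM and 3.96 ± 0.21 under library totals (adjusted p = 1.48e-37). TXNIP stayed below the low-count filter, with 2 to 6 counts in the glucose libraries and 3 to 8 with neither nutrient, so no change could be measured at this depth. Of 8 measured genes of the list 4 rose and 2 fell, KLF10 (-1.47) and ARRDC3 (-0.53).

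Glycolysis genes were lower with glucose, with 17 of 23 down and 2 up and a median of -0.84 under TMM and -0.40 under totals. TPI1, the triosephosphate isomerase gene, had 482, 501 and 482 CPM with glucose, against 1383, 1418 and 1399 CPM with neither nutrient, and LDHA, the lactate dehydrogenase gene, had 348, 357 and 356 CPM with glucose, against 1012, 982 and 993 CPM with neither nutrient. These differences held in all libraries (log2 -1.52 ± 0.019 under TMM and -1.08 ± 0.017 under library totals and -1.49 ± 0.021 under TMM and -1.06 ± 0.019 under library totals, adjusted p = 3.46e-143 and 9.39e-135). PFKFB2, a gene of the enzyme that makes the phosphofructokinase activator fructose 2,6-bisphosphate, had 30.8, 28.1 and 31.02 CPM with glucose, against 9.86, 9.08 and 10.4 CPM with neither nutrient and rose. The other gene that rose, HK2, a hexokinase gene, was at 0.13 and was not called with no low-count filter (0.089, adjusted p = 0.112). The glucose transporter gene SLC2A1 (GLUT1) fell (-0.87) and SLC2A3 (GLUT3) fell as well, at -0.54 under TMM and -0.10 under totals. In the pentose phosphate list 4 of 7 fell and 0 rose, led by PGD (-1.08).

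O-GlcNAc is a sugar mark set on proteins by OGT and removed by OGA, and its donor is made by the hexosamine pathway. OGT (ENSG00000147162, chromosome X, 71533083 to 71575897) had 245, 247 and 251 CPM with glucose, against 65.9, 60.1 and 59.1 CPM with neither nutrient, and OGA had 313, 321 and 331 CPM with glucose, against 123, 119 and 123 CPM with neither nutrient. Both genes were higher in every glucose library (log2 2.00 ± 0.032 under TMM and 2.44 ± 0.031 under library totals and 1.40 ± 0.027 under TMM and 1.84 ± 0.026 under library totals, adjusted p = 5.90e-123 and 1.36e-108). GFPT1, the gene of the first hexosamine enzyme, rose by 1.15 and NAGK, the salvage kinase gene, by 0.84, while PGM3 fell (-0.71). Of 16 genes that make N-glycan donors 8 fell, such as MPI (-1.22) and ALG3 (-1.18), and 2 rose.

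The respiratory chain is encoded in part by the nucleus and in part by mitochondrial DNA, and its nuclear genes were lower with glucose while most of the mitochondrial ones were higher. Of 36 nuclear genes of oxidative phosphorylation 34 fell and 0 rose, with a median of -0.89 under TMM and -0.45 under totals. NDUFS3, a complex I gene, had 37.4, 39.97 and 39.0 CPM with glucose, against 96.5, 108 and 101 CPM with neither nutrient, and ATP5MC1, a gene of the ATP synthase ring, had 58.8, 59.9 and 63.05 CPM with glucose, against 150.4, 159.9 and 149.99 CPM with neither nutrient. The groups did not overlap at either (log2 -1.39 ± 0.042 under TMM and -0.96 ± 0.042 under library totals and -1.34 ± 0.034 under TMM and -0.90 ± 0.034 under library totals, adjusted p = 6.96e-78 and 7.70e-90). NDUFS1 was called lower under TMM (-0.08) and higher under totals (0.36), and NDUFV2 (-0.37 and 0.06) was not called. Without neither replicate 2 the value of NDUFS1 under TMM was -0.063 (adjusted p = 0.0848). Of the 13 protein genes of mitochondrial DNA 10 rose and 1 fell, with a median of 0.50 under TMM and 0.93 under totals. MT-CYB, the cytochrome b gene, had 351, 351 and 361 CPM with glucose, against 201, 200.1 and 203 CPM with neither nutrient, whereas MT-ND4 had 693, 716 and 735 CPM with glucose, against 1026, 962 and 1011 CPM with neither nutrient, a log2 change of -0.48 under TMM and -0.05 under totals.

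Of 29 TCA cycle and pyruvate genes 19 fell and 2 rose. SDHB, a succinate dehydrogenase gene, had 57.7, 61.8 and 61.2 CPM with glucose, against 159, 147 and 153 CPM with neither nutrient, and PDP1, the phosphatase gene that activates pyruvate dehydrogenase, had 221, 221 and 233 CPM with glucose, against 106, 102 and 101 CPM with neither nutrient. SDHB was thus lower (adjusted p = 1.75e-89) and PDP1 higher (adjusted p = 1.52e-87) in all glucose libraries. Among 9 genes of glutamine metabolism 5 fell and 2 rose. GOT1, the cytosolic aspartate transaminase gene, rose by 1.58, while its mitochondrial partner GOT2 fell (-1.44). GLUL, the glutamine synthetase gene, was at -0.45 under TMM and -0.02 under totals, lower under TMM alone.

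DNA replication genes were lower with glucose, and mitosis genes were mixed. Of 37 replication genes 35 fell and 0 rose, with a median of -1.36 under TMM and -0.92 under totals. MCM2, a gene of the replicative helicase, had 108, 114 and 115 CPM with glucose, against 462, 461 and 467 CPM with neither nutrient, and TYMS, the thymidylate synthase gene, had 80.2, 83.3 and 81.8 CPM with glucose, against 245, 242 and 245 CPM with neither nutrient. The separation was complete at both (log2 -2.05 ± 0.027 under TMM and -1.61 ± 0.026 under library totals and -1.58 ± 0.031 under TMM and -1.14 ± 0.03 under library totals, adjusted p = 6.79e-138 and 1.07e-108), although 46.6% of TYMS exon bases and 23.6% of MCM2 exon bases lie opposite other exons. POLE (-0.38) was called lower under TMM alone, and GINS1 lower under TMM (-0.22) and higher under totals (0.21).

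Of 24 mitosis genes 5 fell and 6 rose, and 16 were lower under TMM, with a median of -0.20 under TMM and 0.24 under totals. The proliferation marker gene MKI67 had 491, 492 and 501 CPM with glucose, against 491, 479 and 491 CPM with neither nutrient, a log2 change of 0.02 ± 0.022 under TMM (adjusted p = 0.339) and 0.46 under totals. CENPE, a kinetochore motor gene, rose by 0.63, and CDC20, an activator gene of the anaphase-promoting complex, fell (-1.13). In the G1 list 9 of 19 genes rose and 6 fell. CCND2, the cyclin D2 gene, had 10.98, 11.4 and 12.1 CPM with glucose, against 1.34, 1.25 and 1.42 CPM with neither nutrient, the pocket protein gene RBL2 rose by 1.03, and E2F1 (-1.54) and CCND3 (-1.59) fell. H1F0, the gene of the linker histone of resting cells, had 170.3, 172 and 179 CPM with glucose, against 50.9, 47.6 and 49.7 CPM with neither nutrient, the largest change among 10 histone genes, of which 4 rose and 2 fell.

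All 48 cytosolic ribosomal protein genes fell, in a narrow range of -1.02 to -0.49 under TMM and with a median of -0.74 under TMM and -0.30 under totals. RPL38 had 331, 331 and 344 CPM with glucose, against 661, 680.04 and 699 CPM with neither nutrient. They held 5.12% to 5.18% of each glucose library and 6.26% to 6.42% of each library with neither nutrient. Of 24 ribosome biogenesis genes 14 fell and 3 rose. BOP1, a gene of 60S maturation, fell (-1.72), NCL, the nucleolin gene, also fell (-1.06), and the ribosomal DNA factor gene UBTF rose by 0.41. Of 21 translation factor genes 10 fell and 3 rose, among them EIF2S1, the gene of the eIF2 subunit that stress kinases phosphorylate, with -1.13, and EIF5B with -1.29. EEF1A1 (log2 -0.27 under TMM, 0.16 under totals) and EEF2 (-0.14 and 0.30) were called lower under TMM and higher under totals.

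Of 15 genes of SR splicing factors and their kinases 9 fell and 3 rose. CLK1, a kinase gene of SR proteins whose own splicing retains introns, had 70.8, 76.3 and 74.5 CPM with glucose, against 276, 267 and 265 CPM with neither nutrient, and CLK2, its relative, had 27.8, 28.5 and 27.9 CPM with glucose, against 8.66, 12.2 and 9.94 CPM with neither nutrient. The pair thus lay in opposite directions, both called (adjusted p = 7.16e-121 and 2.34e-43). NEAT1, the scaffold RNA of paraspeckles (ENSG00000245532, chromosome 11, 65422774 to 65445540), had 739, 736 and 739 CPM with glucose, against 40.9, 37.7 and 42.1 CPM with neither nutrient, and MALAT1, another nuclear RNA, rose by 0.47. Of the 15 nuclear and small nucleolar RNA host genes in that list 9 rose and 2 fell, with SNHG1 at 1.00 and SNHG16 at -0.73.

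Autophagy genes rose in 11 of 21 cases and fell in 1. ULK1, the kinase gene that starts autophagy, had 76.8, 79.99 and 75.9 CPM with glucose, against 25.4, 24.4 and 22.6 CPM with neither nutrient. MAP1LC3B, the gene of LC3B on autophagosome membranes, had 819.9, 859 and 859 CPM with glucose, against 277, 274 and 272 CPM with neither nutrient. Both lay higher in each glucose library (log2 1.68 ± 0.05 under TMM and 2.12 ± 0.048 under library totals and 1.63 ± 0.022 under TMM and 2.06 ± 0.02 under library totals, adjusted p = 3.61e-79 and 1.24e-136). FNIP1, a folliculin partner gene in the lysosome list, rose by 1.69, ATG7 fell (-0.78), and 7 of the 23 lysosome genes rose and 6 fell, led by GLA (-1.97), the α-galactosidase gene.

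Among 20 genes of NRF2 and glutathione metabolism 8 rose and 4 fell, close to the shares of all tested genes (39.9% and 20.9%). HMOX1, the haem oxygenase gene, had 47.7, 49.4 and 51.2 CPM with glucose, against 573, 587 and 589.9 CPM with neither nutrient, and TXNRD1, the thioredoxin reductase gene, had 1534, 1557 and 1584 CPM with glucose, against 807, 784 and 798 CPM with neither nutrient. The first was far lower and the second higher with glucose, while GCLM (-0.28 under TMM, 0.15 under totals) and GSR (-0.10 and 0.34) were called lower under TMM and higher under totals. Of 15 hypoxia genes 7 rose and 6 fell. VHL, the gene of the ligase that degrades HIF, had 135, 134 and 133 CPM with glucose, against 31.3, 31.3 and 32.7 CPM with neither nutrient, and ADM, the adrenomedullin gene, had 14.2, 15.8 and 11.2 CPM with glucose, against 86.02, 82.3 and 87.3 CPM with neither nutrient. HIF1A was called lower under TMM (-0.34) and higher under totals (0.09).

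Of 17 apoptosis genes 8 rose and 5 fell, where 39.9% of all tested genes rose and 20.9% fell. BMF, a BH3-only gene, had 6.65, 6.09 and 5.44 CPM with glucose, against 1.01, 0.705 and 0.552 CPM with neither nutrient, and TNFRSF10B, the death receptor gene DR5, had 229.7, 245 and 236 CPM with glucose, against 57.6, 55.98 and 55.99 CPM with neither nutrient. BBC3 (PUMA), another BH3-only gene, rose by 1.78, as did the antiapoptotic MCL1 (1.08), and BID fell (-1.87). H1299 is known to lack p53, and of 16 genes named as p53 targets 8 rose and 4 fell, with CDKN1A (p21) at 57.1, 56.8 and 58.1 CPM with glucose, against 155, 153 and 159 CPM with neither nutrient and RRM2B up by 1.21.

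Of 14 measured NF-κB and cytokine genes 6 fell and 1 rose, with BIRC3 at -1.16 and CXCL2 at 0.83. Of 16 interferon response genes 8 fell and 4 rose, with OAS3 at -1.80 and ISG15 at -1.27 among the falls. IRF9 (2.67) and IRF7 (0.47) were among the rises. The count of IRF9 is uncertain because 48.4% of its exon bases lie in another gene's exons on its strand. Targets of YAP and TEAD were divided, with 5 of 11 higher and 2 lower, such as AJUBA (1.60), CTGF (1.10) and ANKRD1 (-2.20). Of 9 polyamine genes 4 fell and 1 rose, with SRM, the spermidine synthase gene, at 57.8 against 224 CPM with glucose against neither nutrient. Of 5 zinc response genes 3 rose and 0 fell, led by the zinc exporter gene SLC30A1 (0.98).

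Of the line's 4 markers, KRT8, KRT18 and VIM were well counted, while KRT19 passed the low-count filter and was not called under either scaling. KRT8 had 154, 164 and 159.7 CPM with glucose, against 554, 578 and 557 CPM with neither nutrient, KRT18 296 ± 1.44 CPM with glucose and 665 ± 14.98 CPM with neither nutrient, and VIM 1835 ± 35.3 CPM with glucose and 2646 ± 32.8 CPM with neither nutrient (SD, n = 3 each), all called lower. The lung lineage genes NKX2-1, SFTPB, SFTPC and SCGB1A1 stayed below the filter, with at most 13 counts in a library. Of 16 fibroblast, endothelial and leukocyte marker genes 4 passed the filter, and of these CORO1A fell (-2.04), at 1.45 against 5.91 CPM with glucose against neither nutrient, and COL1A1 (0.557 against 0.388 CPM), PDGFRB (0.588 against 0.295 CPM) and ENG (11.3 against 13.9 CPM) were not called under both scalings. Without glucose replicate 3 PDGFRB was called higher under TMM (1.39, adjusted p = 0.0104). PTPRC, which defines leukocytes, had 0 to 4 counts in a library, and LUM, a fibroblast gene, 0 to 1.

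The same addition of glucose could be compared with and without glutamine, since these contrasts share no library. With glutamine 5502 genes (32.6%) were higher and 5571 (33.0%) lower under TMM, and the glucose effect differed between the backgrounds for 12635 genes (74.8%). The next counts set calls under both scalings without glutamine against calls under TMM with glutamine, so the criteria differ. Of the 6735 genes that rose without glutamine, 1791 were also higher with it, 2563 were lower and 2381 were not called. Of the 3533 that fell, 1147 were also lower, 1556 were higher and 830 were not called. Across the 16889 genes, which are not independent, Pearson's r between the effects was -0.107.

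ATF4 targets had a median change of 1.07 without glutamine and -2.02 with it. TRIB3 changed by 3.25 without and -3.60 with glutamine, a difference of 6.85 ± 0.041 (adjusted p = 4.55e-198). In levels, TRIB3 with glutamine present was at 29.8 ± 1.797 CPM with glucose and 360.03 ± 3.99 CPM without it (SD, n = 3 each). HSPA5 likewise changed by 1.14 without and -3.48 with glutamine (difference 4.62 ± 0.023, adjusted p = 4.43e-214). Both genes therefore rose with glucose in one background and were lower with glucose in the other.

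Cholesterol synthesis genes had the opposite arrangement, with a median of -0.90 without and 1.69 with glutamine, as did DNA replication genes at -1.36 and 0.70. FASN changed by -1.62 without and 2.21 with glutamine (difference -3.83 ± 0.029, adjusted p = 4.15e-179), and HMGCS1 by -0.79 and 2.29 (difference -3.09 ± 0.051, adjusted p = 6.64e-121). Cytosolic chaperones had a median of -2.01 without and -0.11 with glutamine. DNAJB1 fell in both backgrounds, with log2 changes of -5.83 without and -0.87 with glutamine (difference -4.96 ± 0.025, adjusted p = 2.01e-211). Among the HSP70 genes, HSPA6 (-6.12), HSPA1A (-3.06) and HSPA1B (-3.06) were also lower with glucose when glutamine was present. The 10 HSP70 and HSP110 genes had a median of -0.43 there. HSP90AA1 and DNAJA1, in contrast, changed by -3.59 and -4.13 without and by 0.48 and 0.32 with glutamine. The effect on ARRDC4 was 3.52 without and 0.72 with glutamine.

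**Figure D4:**
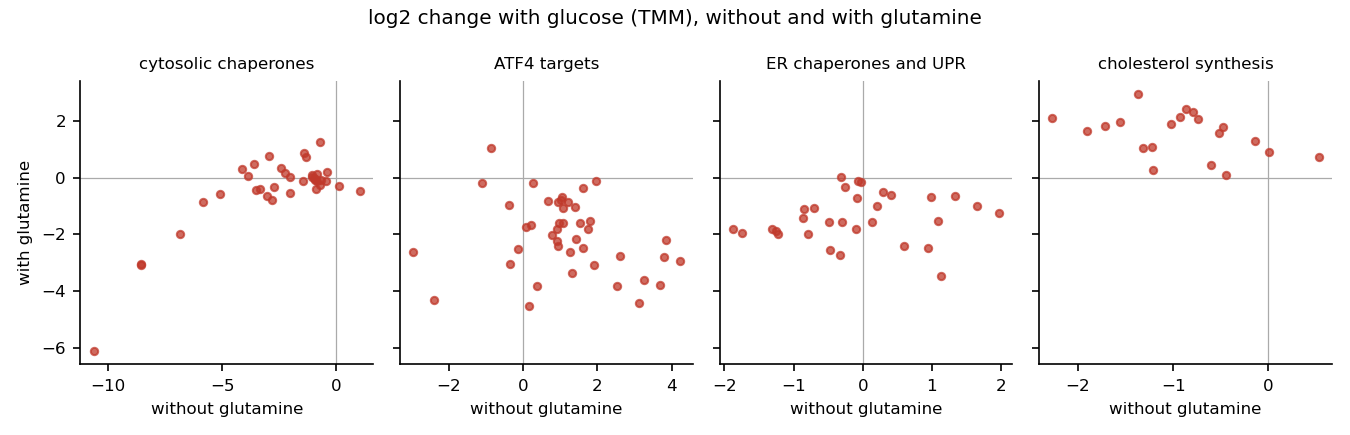
Log2 change with glucose (TMM) of the measured members of 4 lists, without glutamine on the horizontal axis and with glutamine on the vertical axis, 1 point per gene. ATF4 targets lie mostly at the lower right (medians 1.07 and -2.02), cholesterol synthesis genes at the upper left (medians -0.90 and 1.69) and chaperones spread far to the left with vertical values mostly near 0 (medians -2.01 and -0.11).

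The change with glucose followed the length of the gene's exons. Protein coding genes were divided into 10 equal groups by exon length. The group with the shortest exons (207 to 2181 bases) had a median log2 change of -0.53 and the longest (10762 to 118976 bases) one of 0.43 under TMM, and -0.09 and 0.87 under totals. In the shortest group 19.5% of genes rose and 44.1% fell, against 62.4% and 7.3% in the longest. Spearman's rho between change and length was 0.291 over 13199 genes and 0.413 over the 9293 with at least 10 CPM, while with glutamine present it was 0.0304. The change also ran against the mean level, with a rho of -0.25. Genes share libraries, and these coefficients describe the libraries only.

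Medians of the gene lists are therefore also given relative to length. Relative to the median of their own length group, ribosomal protein genes were at -0.51, nuclear oxidative phosphorylation genes at -0.59, proteasome genes at -1.15, DNA replication genes at -1.11 and cytosolic chaperones at -1.83. ATF4 targets were at 1.16 and genes of mitochondrial DNA at 1.03 on that scale. The sign of these medians was the same with and without the length comparison, and the part of length in the single changes was not tested.

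**Figure D5:**
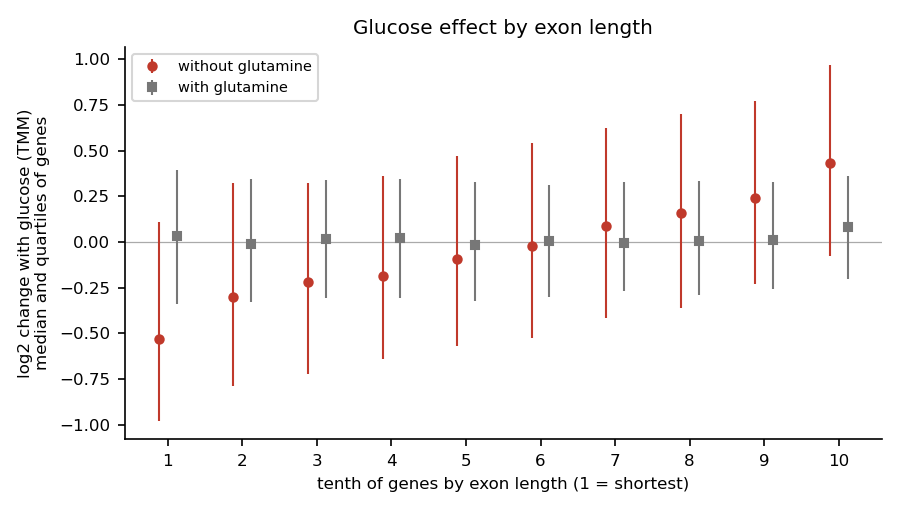
Median log2 change with glucose (TMM) and quartiles of protein coding genes in 10 groups of rising exon length, without glutamine (circles) and with glutamine (squares). Without glutamine the medians climb in order of length, -0.53 in the shortest and 0.43 in the longest group, and with glutamine they stay between -0.014 and 0.081.

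Classes of genes looked at after the single genes also differed in this contrast. Of 2033 tested long noncoding genes 1098 rose and 70 fell, with a median of 0.76 under TMM and 1.2 under totals. Among all tested genes 39.9% rose and 20.9% fell. Of 467 zinc finger genes named ZNF 291 rose and 36 fell, with a median of 0.51. On chromosome 19, where clusters of them lie, 154 of 232 rose and 15 fell, with a median of 0.60, close to that of all ZNF genes. Relative to protein coding genes of similar exon length, the medians were 1.10 for long noncoding, 0.52 for ZNF and 0.58 for chromosome 19 ZNF genes. No comparison at similar mean level was made.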

How the data were processed

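The deposited table holds whole-number counts per Ensembl gene for 58395 genes, which the authors made without normalization, and columns were matched to libraries by their labels. Tools listed in the submitters' processing notes are Subread 1.5.1, featureCounts and HISAT2 2.1.0, with GRCh38.p12 as the build. The sources used here do not give the strand setting or how multiply mapped reads were treated, although per the labels' protocols the kit was stranded and poly(A) RNA was selected. Names, positions and exons came from GENCODE 29, which holds 58275 of the IDs and lacks 120.

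The filterByExpr filter kept 16889 genes. The quasi-likelihood test of edgeR 4.0.16 (R 4.3.3, robust) was fitted to 15 libraries with a mean per medium and 10 residual degrees of freedom, with a common biological coefficient of variation of 0.0221. Tests were two-sided with Benjamini-Hochberg adjustment, under TMM scaling and under library totals. The steps were tested on simulated data in which most genes had equal means with glucose and with neither nutrient. That setting has no wide shift in composition between these groups, so it does not test the choice of scaling. A floor of 3 counts was 0.165 to 0.237 CPM and covers counting error only. Pairs of replicate libraries differed by a chi-square of 1.33 to 2.36 for each degree of freedom, and none were identical.

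Members and gene lists were chosen with earlier results of these data known. Named genes followed a rule. It took the 12 largest rises and falls among called coding and long noncoding genes whose libraries were separate and averaged 10 CPM or more. From each list or role it took up to 4 called members in the commoner direction and up to 2 in the opposite one, by size of change. It also added a panel and uncalled members, of which only some are named here. HSPA7, HSPA8, SPRED1 and SPRED2 were named after their values were seen. Many members, called and uncalled, are counted in their lists and not reported by name here. Exon lengths are unions of annotated exons. Alternatives were DESeq2 1.42.0, other filters and scalings, the 6 libraries alone, a replicate block, a 1.2-fold threshold and leaving out libraries.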

Additional observations from a re-analysis of the deposited data

Results flagged for a closer look

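The effect of glucose differed between the media without and with glutamine for 12635 of 16889 genes at an adjusted p under 0.05 in the quasi-likelihood test of edgeR. Each difference below is the log2 change with glucose over its absence without glutamine, minus the same change with glutamine, and a test of the difference itself flagged each of them. The difference was negative for the chaperone genes DNAJB1 (-4.96), HSPH1 (-3.07) and BAG3 (-4.54), for the AP-1 gene FOS (-2.26) and for the lipid synthesis genes HMGCS1 (-3.09) and FASN (-3.83). It was positive for EGR1 (2.05), for the stress genes DDIT3 (4.67), TRIB3 (6.85) and SLC7A11 (7.16), for the ER chaperone gene HSPA5 (4.62) and for the nuclear RNA NEAT1 (4.62). The largest adjusted p among these 12 genes was 2.05e-52, at FOS.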

How the results depend on the processing

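The scaling was the choice that moved most. Under library totals 10145 genes were higher and 3533 lower, against 6735 and 6401 under TMM, since changes shifted by a median of 0.436. Of 354 single genes followed, 21 turned direction under library totals, at EEF1A1 (0.16), EEF2 (0.30), DDIT4 (0.094), EIF4EBP1 (0.072), SLC3A2 (0.30), ENG (0.14), GCLM (0.15), GSR (0.34), GINS1 (0.21), POLE (0.057), HERPUD1 (0.10), HIF1A (0.093), JUNB (0.036), NDUFS1 (0.36), NDUFV2 (0.063), PPID (0.060), SQLE (0.29), SREBF1 (0.19), SREBF2 (0.11), UBE2D3 (0.31) and ZFAND5 (0.11). List medians that turned were those of mitochondrial chaperones (0.10), ER chaperones and the UPR (0.33), sterol control (0.16), the hexosamine and glycosylation list (0.056), mitosis (0.24), G1 (0.41), NRF2 and glutathione (0.41), hypoxia (0.16) and the 1 measured endothelial marker (0.14). Relative to genes of similar exon length, a comparison chosen after seeing the data, the lysosome and autophagy median was -0.017 and that of NRF2 and glutathione 0.24. MKI67, not called under TMM, was at -0.014 with no low-count filter (adjusted p = 0.85 by edgeR).

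The other alternatives kept both counts within 1.5 times. Genes higher and lower numbered 6602 and 6535 with DESeq2 size factors, 6294 and 6313 with the Wald test of DESeq2, 6642 and 6515 with no low-count filter, 6387 and 6178 with at least 1 CPM in 3 libraries, 6436 and 6225 in a fit of the 6 libraries, and 5506 and 5072 against a 1.2-fold change. Leaving out 1 library gave 6471 to 6626 higher and 6223 to 6308 lower genes, and 12437 to 12546 genes whose glucose effect differed. Leaving out both glucose replicate 1 and neither replicate 2, a choice made after seeing the data, gave 6367 higher and 6124 lower genes. Single genes that lost or gained a call when 1 library was left out were AKR1C2 (0.64 without glucose replicate 1 and 0.70 without neither replicate 1, against 0.97), BAG5, NDUFS1 and PDGFRB. With no low-count filter BAG5, HK2 (0.089) and XBP1 (0.096) lost their calls.

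The replicate block gave 6712 higher and 6386 lower genes and shared 13094 of 13136 calls and their direction. Libraries with equal numbers had residual correlations of -0.0163 to 0.00841 and those with different numbers -0.0463 to 0.0575, and the best match of a library had its own number in 0 of 6 cases, so the numbers were not used as pairs.

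Depth limits genes near the floor, such as TXNIP and CRYAB. The labels name no separate cultures or days, and the sources used here do not say how reads of overlapping or repeated genes were counted.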
